A study of Mus musculus with 34 samples.

Results

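Hearts of vehicle-treated mice were set against a commercial pooled mouse RNA on two-colour arrays, and the ratio of heart to pool was read for every gene. All control arrays of the series were taken, 18 of 34, with 6 each at day 1, 3 and 28 after instillation; no array of an exposed animal enters a value below. Each array carried RNA of 1 female C57BL/6 mouse heart, labelled with Cy5, and Universal Mouse Reference RNA, labelled with Cy3. The animals, acquired at 5 to 6 weeks of age, are labelled as vehicle controls (dose 0 µg); the medium in which the study suspended its carbon black was saline (0.9% NaCl) with 10% lavage fluid of mouse lung. The labels give heart as the tissue without naming chambers, and the reference as purchased total RNA.

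The adult heart is built of large, non-dividing muscle cells that beat by cycling calcium between the sarcoplasmic reticulum and the sarcomere and that draw most of their energy from fatty acids burnt in mitochondria. Endothelial cells, fibroblasts, mural cells and resident macrophages lie between them. Universal reference RNAs are generally pooled from cultured cell lines, which divide; the labels do not give the sources of this one. A ratio near 0 on the log2 scale means similar signal in both channels. It does not tell equal expression from signal near background in both, because a background offset of 50 was used.

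A gene was tested where at least 9 of the 18 arrays found its heart or its reference signal well above background, which left 21569 genes, 13088 of them with a gene symbol. The mean log2 ratio (heart over reference) of a gene is the mean of its 3 day means, and limma's TREAT asked whether it lay beyond 1 in either direction, a change of 2-fold, with Benjamini-Hochberg adjustment over all genes at 0.05. In vehicle hearts 2089 genes were higher than in the reference, 9.69% of those tested, and 1481 were lower, 6.87% of those tested, so that 16.6% passed in either direction. Of the higher genes 2017 lay above 0 on all 18 arrays, and of the lower genes 1420 lay below 0 on all 18. The tail was longer on the heart side, with 1109 genes at least 4-fold higher against 397 at least 4-fold lower, and 187 against 13 at 16-fold. The median gene stood at -0.02, a value that the loess normalisation sets near 0. With median centring of each array in place of loess the median of all genes moved to -0.32, and the calls to 1133 higher and 4234 lower, 21.1% of calls higher in place of 58.5%. Agilent's processed signals, which were also median centred, gave 3093 higher and 3961 lower, 43.8% higher, and the authors' deposited log2 values gave 1907 higher and 1812 lower, 51.3% higher.

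The 4 marker genes of cardiac muscle were all higher in heart. Pln, which encodes phospholamban, the brake on the calcium pump of the sarcoplasmic reticulum, had log2 ratios of 5.61 at the lowest, 6.88 at the median and 8.07 at the highest array. Its mean of 6.90 ± 0.72 (within-day SD, n = 18) is a 120-fold excess in heart, and its reference channel was well above background on 12 of the 18 arrays. Actc1, cardiac alpha-actin, ran from 3.18 over a median of 4.72 to 5.26, with a mean of 4.59 ± 0.53. Tnnt2, cardiac troponin T, ran from 4.00 over 4.31 to 4.79, with a mean of 4.31 ± 0.24, the tightest of the 4. Myh6, the alpha-myosin heavy chain of the adult mouse ventricle, ran from 2.86 over 4.16 to 4.88, with a mean of 4.05 ± 0.54. No array overlapped 0 for any of the 4, and the largest adjusted p of TREAT among them was 2.96e-14, for Myh6.

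Promoters are shown for 3 heart-enriched muscle genes and 3 heart-depleted mitotic genes, because the motifs long known from each class could be looked up in them. In each window only the motifs of its own class are capitalised. The windows run from 250 bases before to 50 after the RefSeq start on GRCm38.p6, read 5′ to 3′ along the gene, and are used here for sequence alone since the array design is on mm8. Capitals mark matches to the CArG box, the binding motif of serum response factor, in Actc1 (chr2:114052826-114053125 (minus strand)) and Myl7 (chr11:5898733-5899032 (minus strand)), and to the MEF2 site in Myoz2 (chr3:123034938-123035237 (minus strand)).
Actc1: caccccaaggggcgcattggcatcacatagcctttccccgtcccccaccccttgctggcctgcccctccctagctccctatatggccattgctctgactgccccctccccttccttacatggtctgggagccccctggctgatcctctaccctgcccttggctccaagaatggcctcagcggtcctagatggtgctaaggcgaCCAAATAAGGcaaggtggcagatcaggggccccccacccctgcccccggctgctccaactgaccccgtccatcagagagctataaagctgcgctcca
Myl7: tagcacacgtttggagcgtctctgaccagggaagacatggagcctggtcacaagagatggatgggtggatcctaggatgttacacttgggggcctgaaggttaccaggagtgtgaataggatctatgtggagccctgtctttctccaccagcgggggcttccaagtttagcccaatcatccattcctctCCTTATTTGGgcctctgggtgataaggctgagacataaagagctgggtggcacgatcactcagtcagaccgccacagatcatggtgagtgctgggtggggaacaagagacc
Myoz2: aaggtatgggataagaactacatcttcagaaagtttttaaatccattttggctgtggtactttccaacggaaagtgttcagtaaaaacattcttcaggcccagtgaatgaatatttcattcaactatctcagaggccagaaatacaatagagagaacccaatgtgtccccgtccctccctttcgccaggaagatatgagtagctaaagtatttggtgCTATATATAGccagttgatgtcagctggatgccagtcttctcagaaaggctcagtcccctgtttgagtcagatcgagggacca

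Actc1 was 24.1-fold higher in heart, and its CArG match lies 47 bases before the RefSeq start. A TATAAA match lies 33 bases after that start, and whether transcription in heart begins there was not tested. Myl7, the atrial regulatory myosin light chain, was 42.4-fold higher with a CArG match 61 bases before the start. Myoz2, the calcineurin-binding Z-disc protein calsarcin-1, had a mean log2 ratio of 5.73 and a MEF2 match 33 bases before its start. A CArG box was found in 4 of the 20 contractile genes with a promoter entry, in 2.3% of the promoters of higher genes, 1.2% of those of lower genes, 1.3% of those of all tested genes and 1.6% of the 27025 promoters of the RefSeq table. A MEF2 site was found in 3 of those 20, in 4.3% of the higher, 1.2% of the lower, 2.0% of all tested and 3.3% of all promoters. These shares are descriptions of 300 letters per gene, both strands searched, and 10430 of the tested genes had an entry.

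For the mitotic genes Ccnb2 (chr9:70421505-70421804 (minus strand)), Cdc20 (chr4:118437294-118437593 (minus strand)) and Cdk1 (chr10:69352863-69353162 (minus strand)), capitals mark CCAAT, the letters bound by nuclear factor Y, on either strand, and TTTGAA, the cell cycle homology region of genes that peak in mitosis. CCAAT on the minus strand reads ATTGG. Motifs of the other class were also matched and stay in lower case. CCAAT lies 235, 79 and 93 bases before the start of Actc1, Myl7 and Myoz2. A MEF2 match lies 232 bases before the start of Ccnb2.
Ccnb2: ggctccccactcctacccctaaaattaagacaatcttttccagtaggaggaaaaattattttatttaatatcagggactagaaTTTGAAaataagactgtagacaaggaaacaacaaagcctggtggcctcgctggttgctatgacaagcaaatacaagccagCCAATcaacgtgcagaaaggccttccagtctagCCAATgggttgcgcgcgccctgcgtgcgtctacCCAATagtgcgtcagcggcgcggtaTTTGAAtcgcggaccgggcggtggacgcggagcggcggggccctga
Cdc20: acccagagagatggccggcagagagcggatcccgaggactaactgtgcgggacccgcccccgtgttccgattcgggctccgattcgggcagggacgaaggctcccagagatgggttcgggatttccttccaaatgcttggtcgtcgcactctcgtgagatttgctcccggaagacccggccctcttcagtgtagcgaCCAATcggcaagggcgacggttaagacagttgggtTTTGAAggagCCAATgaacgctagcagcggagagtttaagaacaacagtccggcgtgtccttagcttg
Cdk1: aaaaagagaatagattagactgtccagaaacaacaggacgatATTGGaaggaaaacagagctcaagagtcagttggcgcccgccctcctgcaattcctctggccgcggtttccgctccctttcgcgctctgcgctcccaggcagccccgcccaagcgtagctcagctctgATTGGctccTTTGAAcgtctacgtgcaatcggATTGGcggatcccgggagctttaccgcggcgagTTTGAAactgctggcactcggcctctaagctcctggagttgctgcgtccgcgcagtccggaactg

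Ccnb2, a mitotic cyclin, was lower in heart on every array, between -3.12 and -2.44 with a mean of -2.79 ± 0.19, and its window holds 3 CCAAT and 2 TTTGAA matches. Cdc20, the activator of the anaphase-promoting complex, averaged -3.46 ± 0.35, with 2 CCAAT matches flanking a TTTGAA match 18 bases before the start. Cdk1, the mitotic kinase, averaged -2.72 ± 0.32, with 3 CCAAT and 2 TTTGAA matches. Of the 19 tested mitosis genes with an entry, 16 held CCAAT (84.2%) and 13 held TTTGAA (68.4%). Among all RefSeq promoters 37.9% held CCAAT and 18.1% TTTGAA. Among the promoters of the lower genes the shares were 44.4% and 17.7%, against 38.5% and 11.3% among those of the higher genes and 38.8% and 12.6% among all tested genes with an entry. In the 20 genes of DNA replication with an entry, CCAAT was found in 65.0% and TTTGAA in 15.0%.

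Sarcomere genes had the highest median of the 38 lists. Of 23 tested genes of the contractile list all 23 passed as higher, with a median log2 ratio of 4.59 beside -0.02 for all genes tested. Mybpc3, the myosin-binding protein C of the thick filament, averaged 5.86 ± 0.67. Tnni3, cardiac troponin I, averaged 5.81 ± 0.75, and Actn2, the actin cross-linker of the Z-disc, 5.73 ± 0.26. The smallest ratios of the list were those of Lmod2, the leiomodin that lengthens thin filaments, at 2.82 ± 0.76, and of Nebl, nebulette, at 2.40 ± 0.48, whose reference channel was well above background on 14 and 7 arrays. Myh7, the slow beta-myosin heavy chain that prevails before birth in the mouse ventricle, ran from 1.75 to 4.71 across the 18 arrays and averaged 3.48 ± 0.99.

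**Figure D1:**
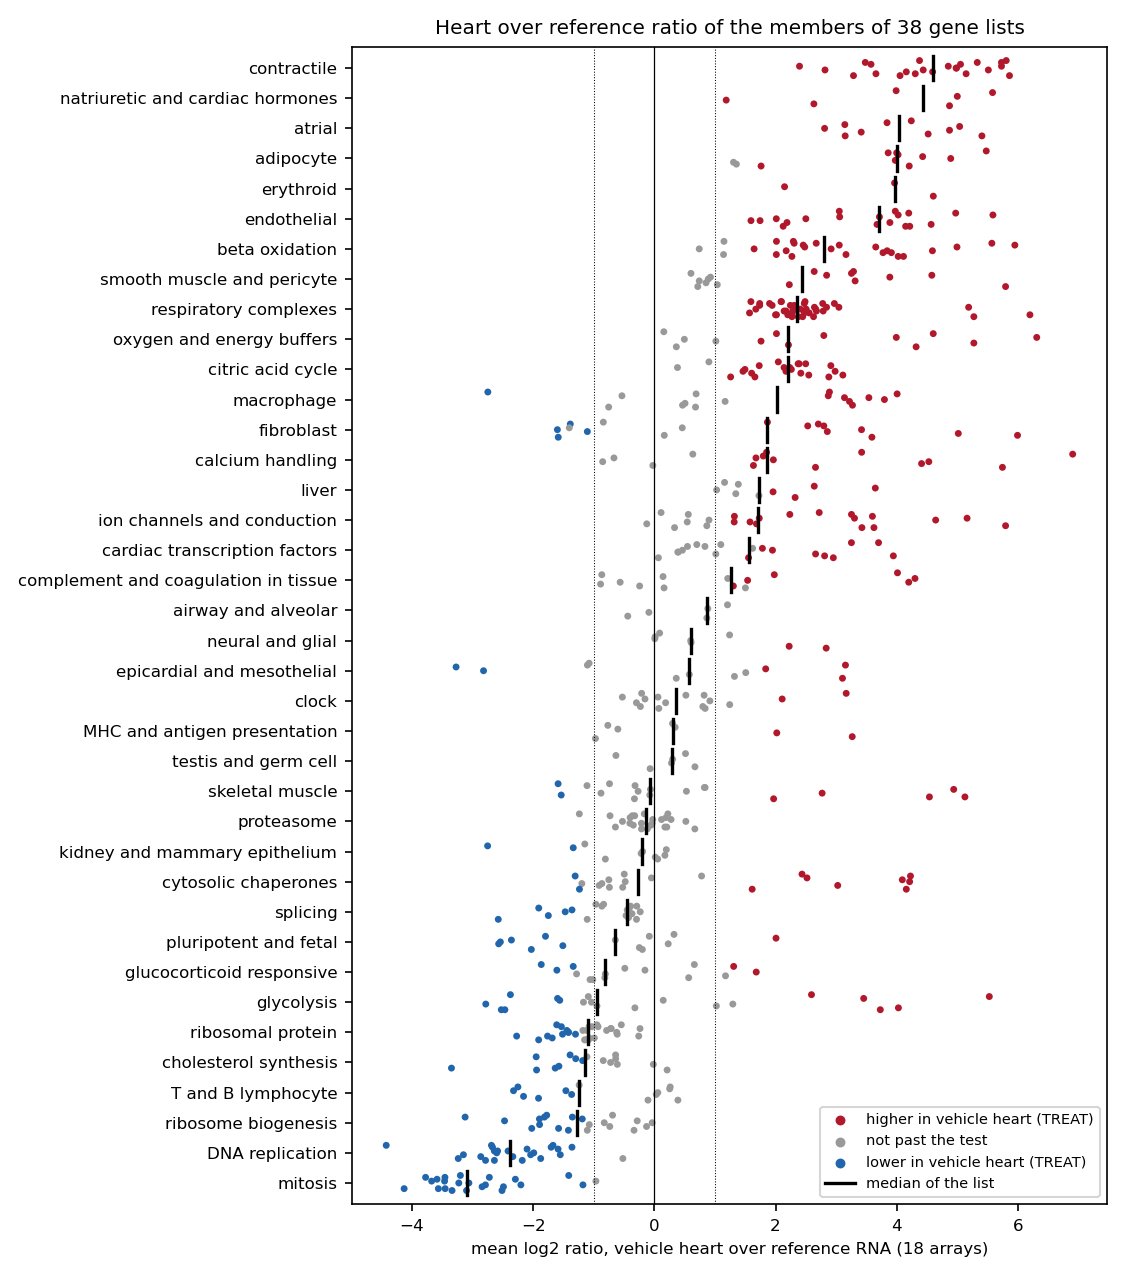
Mean log2 ratio of heart over reference (x axis, 18 vehicle arrays) for each tested member of 38 gene lists, sorted by the list median (black bars); red points passed TREAT as higher in heart, blue as lower, and dotted lines mark the bound of 1. The contractile list lies at a median of 4.59 and the mitosis list at -3.10, with the proteasome list near 0 at -0.14.

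Calcium handling genes covered a wide range. Of 15 tested genes 11 were higher and none was lower, with a median of 1.85 (3.01 with a background offset of 0 and 3.20 with Agilent's processed signals). After Pln came Atp2a2, the calcium pump itself, at 5.74 ± 0.25, and Casq2, the calcium store protein of cardiac sarcoplasmic reticulum, at 4.53 ± 0.27. Ryr2, the calcium release channel, had a lower ratio of 1.68 ± 0.47, with its reference channel well above background on 1 array. Fkbp1b, which binds the release channel, at -0.67 ± 0.28, and Sri, sorcin, at -0.85 ± 0.53, did not pass.

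Channels and junction proteins of excitation were higher for 15 of 22 tested genes, with a median of 1.71 (3.19 with a background offset of 0 and 3.97 with Agilent's processed signals). Kcnj8, the pore of the ATP-sensitive potassium channel of vessels, averaged 5.80 ± 0.50 by its brighter probe and 2.70 by its other probe. Popdc2, a cAMP-binding membrane protein of heart muscle, averaged 5.16 ± 0.26, and Gja5, the connexin of atrial and conducting cells, 4.64 ± 1.55. Gja1, the main ventricular connexin, was higher with a smaller mean of 1.32 ± 0.51. Hcn2, a pacemaker channel, at 0.11 ± 0.30, and Gjc1, a connexin of the conduction system, at -0.12 ± 0.49, did not pass.

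Transcription factors of the heart had smaller ratios than the proteins of the sarcomere. Of 19 tested, 9 were higher and none was lower, with a median of 1.56. It was 1.01 with median centring, 1.92 with a background offset of 0 and 2.22 with Agilent's processed signals. Myocd, the smooth and cardiac muscle coactivator of serum response factor, averaged 3.94 ± 0.38. Hopx, a homeodomain-only protein, averaged 3.70 ± 0.25. Tbx20, a T-box factor of heart development, was dark in the reference on all 18 arrays and was at least 9.28-fold higher in heart. Gata4 averaged 0.70 ± 0.29 and did not pass. It passed as higher with a background offset of 0 (1.39) and with Agilent's processed signals (1.57).

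Hormones of the heart were higher throughout the 6 tested genes of their list, with a median of 4.43. Nppb, brain natriuretic peptide, averaged 5.58 ± 0.43, ahead of Corin, the protease that activates these peptides, at 5.00 ± 0.55. Nppa, atrial natriuretic peptide, ran from 4.36 to 5.38 and averaged 4.87 ± 0.29. The receptors Npr3, at 2.63 ± 1.28, and Npr2, at 1.19 ± 0.19, had the smallest ratios of the list.

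Most genes of oxidative energy metabolism were higher in heart. All 40 genes of the respiratory list were higher, with a median of 2.35, and 20 of 22 genes of the citric acid cycle, with a median of 2.20; with median centring these medians were 1.36 and 1.24. The respiratory list does not hold every subunit. Outside it the cytochrome oxidase subunits Cox7a2 at 1.17, Cox6a1 at 0.04 and Cox8a at -0.02, and in the citric acid list Sdhc of succinate dehydrogenase at 0.90, did not pass. The 3 muscle-specific subunits of cytochrome oxidase stood above the rest, Cox8b at 6.20 ± 0.59, Cox6a2 at 5.27 ± 0.41 and Cox7a1 at 5.19 ± 0.30. The next subunit, Uqcrfs1 of complex III, had 3.05 ± 0.43, and the lowest of the list, Atp5d of the ATP synthase, 1.57 ± 0.23. In the citric acid cycle Sdhb, a subunit of succinate dehydrogenase, had the highest mean at 3.11 ± 0.41. Suclg2, the GTP-forming succinyl-CoA ligase subunit, averaged 0.38 ± 0.51 and did not pass, while Sucla2, the ATP-forming one, was higher at 2.88 ± 0.49.

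Fatty acid oxidation was higher for 23 of 26 genes, with a median of 2.79. Pdk4, a kinase that inhibits pyruvate dehydrogenase, averaged 5.95 ± 0.96 and varied from 2.84 to 7.63. Fabp3, the fatty acid carrier of heart muscle, averaged 5.57 ± 0.36 and Lpl, lipoprotein lipase, 4.99 ± 0.47. Eci2, an enoyl-CoA isomerase, averaged 1.14 ± 0.38 and did not pass. Among energy buffers Ckmt2, the mitochondrial creatine kinase of sarcomeric muscle, was 79.3-fold higher, at 6.31 ± 0.25. Mb, myoglobin, ran from 3.94 to 4.81 and averaged 4.32 ± 0.25.

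Glycolysis split by isozyme instead of moving as a block, with 5 genes higher, 6 lower and 8 not past the test. Higher were Slc2a4, the insulin-responsive glucose transporter GLUT4, at 5.53 ± 0.30, Pgam2 at 4.03 ± 0.44, Ldhb at 3.73 ± 0.82, Eno3 at 3.45 ± 0.74 and Pfkm at 2.59 ± 0.42. Lower were Slc2a1, the GLUT1 transporter of most dividing cells, at -2.52 ± 0.41, Pgam1 at -2.78 ± 0.65, Eno1 at -2.37 ± 0.64, Aldoc, Pfkl and Pgk1. In each of the 4 enzyme or transporter steps Slc2a4 and Slc2a1, Pfkm and Pfkl, Pgam2 and Pgam1, and Eno3 and Eno1, the first-named form was higher and the other lower.

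Ratios were also set side by side in 35 paralog pairs of a heart, muscle or mature form and another, of which 33 had both genes tested. The first-named form had the larger ratio in 32 of the 33 pairs, and on all 18 arrays in 30. The first place was given to the heart, muscle or mature form, with earlier results of these data known, and some genes stand in several pairs. The counts therefore describe the chosen pairs and test nothing. Over all pairs the second form was lower in 7, higher in 7 and not past the test in the rest. Of all genes tested 9.69% were higher and 6.87% lower. The first-named form passed as higher in 30 pairs, and in 6 of these the other form passed as lower. Besides the 4 glucose pairs, these were Myh6 beside the nonmuscle myosin Myh9 (-2.17 ± 0.63) and Eef1a2 (3.59 ± 0.46) beside the general elongation factor Eef1a1 (-1.48 ± 0.68). The call of Eef1a1 was lost with a background offset of 0 (-1.31), on the 3 slides that held all days (-1.50) and without the 3 day 3 arrays high in liver genes (-1.44). The widest gap was 8.05 on the log2 scale, between Slc2a4 and Slc2a1. The exception was Gata4, at 0.70, beside Gata2, a factor of blood and vessel cells, which was higher at 1.55 ± 0.38 (0.75 and not past the test with median centring). Several second forms near 0 sit on either side of it depending on the scaling: with median centring Cox6a1 stood at -1.02 (0.04 with loess), Slc25a5 at -0.84 (0.18 with loess) and Cpt1a at -0.70 (0.18 with loess). Such pairs set ratios to the reference side by side, and say nothing of which form is the more abundant in heart.

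**Figure D2:**
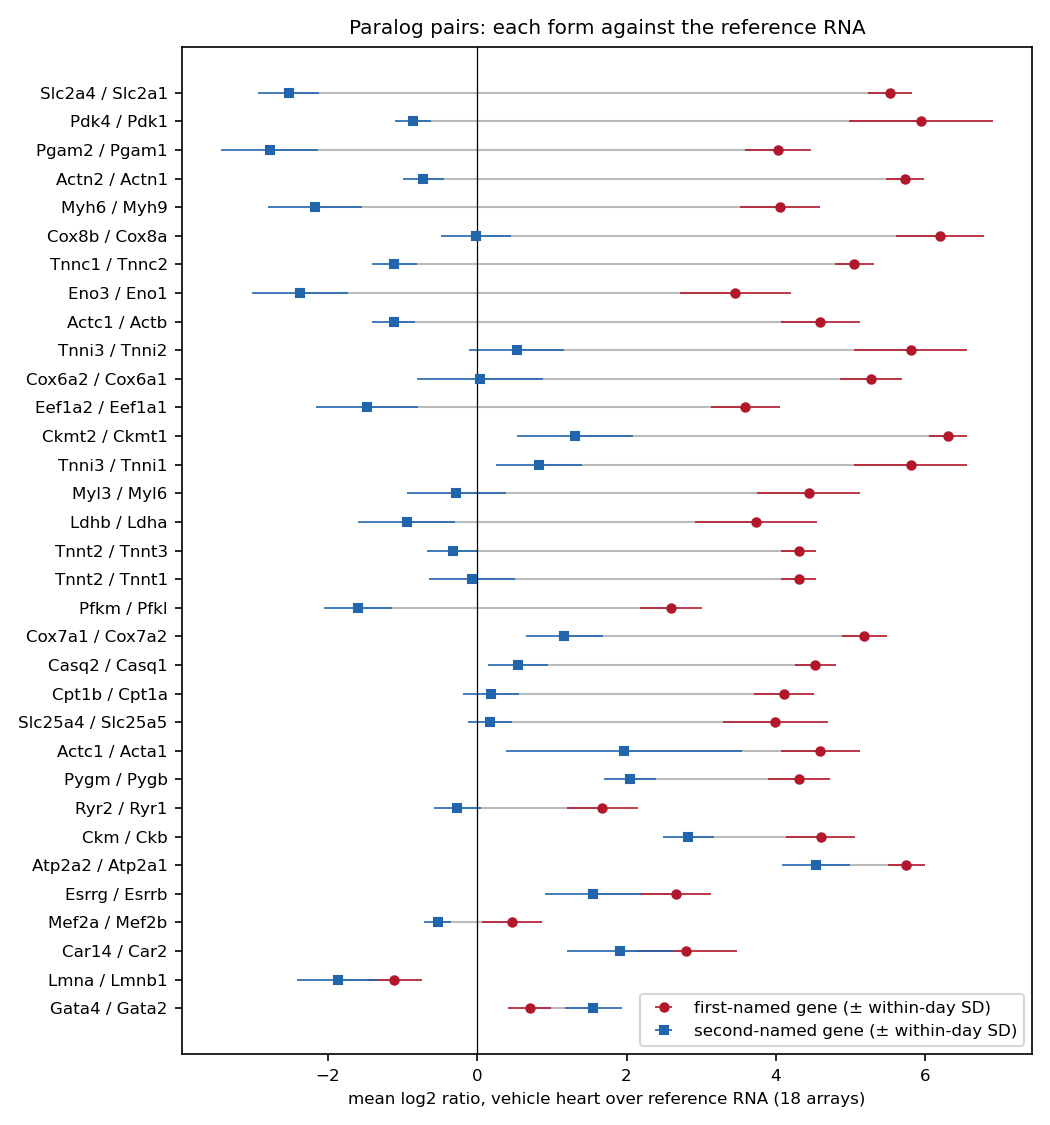
Mean log2 ratio of heart over reference (x axis, 18 vehicle arrays) for both genes of 33 paralog pairs, sorted by the gap between them; red circles are the first-named gene, blue squares the second-named gene, and bars are the within-day SD between animals. The gap is 8.05 for Slc2a4 and Slc2a1, and the order is turned in the bottom pair, Gata4 and Gata2.

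Small heat shock proteins were enriched while general chaperones were not. In the list of 20 chaperones, 8 were higher and 2 lower. The higher ones were Hspb2 at 4.23 ± 0.31, Hspb7 at 4.21 ± 0.36, Cryab, the alpha-B crystallin that guards desmin filaments, at 4.16 ± 0.32, and Hspb3, Hspb8, Hspb6, Hspb1 and the inducible Hspa1a. The lower ones were Cct3, at -1.23 ± 0.37, and Cct5, at -1.31 ± 0.20, subunits of the chaperonin that folds actin and tubulin. Hspa1a is a near copy of Hspa1b, so its 1.61 ± 1.04 may hold signal of both.

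Endothelial genes were higher without exception among the 19 tested, at a median of 3.71. Emcn, endomucin, averaged 5.59 ± 0.39, Cdh5, the cadherin of endothelial junctions, 4.97 ± 0.47, and Kdr, the main receptor of vascular endothelial growth factor, 4.57 ± 0.43. The smallest were the transcription factor Sox17 at 1.75 ± 0.32 and the receptor Tie1 at 1.59 ± 0.34. Mmrn2, a matrix glycoprotein of endothelium that belongs to no list, was among the highest genes of all at 6.36 ± 0.50. In tissue RNA, more cells of a type and more RNA per cell cannot be told apart.

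Fibroblast genes went both ways, with 9 higher, 4 lower and 4 not past the test of 17. Higher were the small proteoglycan Lum at 5.99 ± 0.56, the calcification inhibitor Mgp at 5.02 ± 0.73 and the actin-severing Gsn at 3.59 ± 0.76. Lower were Thy1 at -1.60 ± 0.42, the collagen genes Col1a1 at -1.58 ± 0.58 and Col1a2 at -1.39 ± 0.66, and Ddr2, a collagen receptor, at -1.10 ± 0.14. Mural genes were higher for 9 of 16, led after Kcnj8 by Rgs5, a pericyte regulator of G-protein signalling, at 4.58 ± 0.83. Acta2, smooth muscle actin, at 0.72 ± 0.65, and Tagln, transgelin, at 0.60 ± 1.33, did not pass.

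Macrophage genes were higher for 8 of 16, led by Lyve1, a hyaluronan receptor of resident macrophages and lymphatic vessels, at 4.01 ± 0.68, C1qc, a complement subunit, at 3.80 ± 0.25, and Folr2, a folate receptor, at 3.54 ± 0.29. Cd14, the lipopolysaccharide co-receptor, was lower at -2.75 ± 0.40. Lymphocyte genes were higher for 0 of 13 and lower for 6, among them Ptprc, the common leukocyte antigen, at -2.32 ± 0.76. Haemoglobin alpha, Hba-a1, was higher at 4.60 ± 0.39 with a near copy elsewhere in its cluster, and Alas2, the haem enzyme of red cell precursors, at 3.96 ± 0.44.

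Genes of cell division were lower almost throughout. Of 23 tested mitosis genes 22 were lower, with a median of -3.10, and of 24 genes of DNA replication 23 were lower, with a median of -2.37. Cenpe, the kinetochore motor, averaged -4.13 ± 0.42, Birc5, survivin, -3.77 ± 0.35, and Ccnb1, the partner cyclin of Cdk1, -3.67 ± 0.58 with its heart channel well above background on 4 of 18 arrays. Aurkb, the kinase that corrects chromosome attachment, was dark in heart on all 18 arrays and at least 5.58-fold lower than in the reference. Ttk, at -0.96 ± 0.23, did not pass, and its heart channel was also dark on all 18.

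In DNA replication Cdt1, which loads the replicative helicase, was 21.5-fold lower in heart and ran from -4.85 to -3.19. Mcm6, a subunit of that helicase, averaged -3.23 ± 0.41, and Prim1, the primase, -3.15 ± 0.30. Rpa2, of the single-strand binding complex, did not pass at -0.52 ± 0.44. The median within-day SD of a replication gene was 0.278, against 0.342 over the lower genes, 0.447 over the higher genes and 0.249 over all genes tested.

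Ribosome production was lower in part. Of 20 genes of ribosome biogenesis 11 were lower, with a median of -1.27, headed by Myc, the growth-promoting transcription factor, at -3.12 ± 0.36 and the nucleolar Npm1 at -2.47 ± 0.54. Of 30 ribosomal proteins 11 were lower, with a median of -1.10, from Rps18 at -2.27 ± 0.48 to Rpl11 at -0.24 ± 0.15. Ribosomal proteins have many processed copies in the genome, so their probes may read several. Of 20 splicing genes 5 were lower, with a median of -0.46, and Hnrnpa1 was the lowest at -2.57 ± 0.59. None of 24 proteasome genes passed, with a median of -0.14 and a range from -1.24 for Psmd14 to 0.67 for Psmc5. With median centring the median was -1.09 for the proteasome, -2.15 for ribosomal proteins, -2.23 for ribosome biogenesis and -1.44 for splicing.

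Cholesterol synthesis was lower for 8 of 16 genes, with a median of -1.15 (-1.97 with median centring). Sqle, squalene epoxidase, was lowest at -3.35 ± 0.59, before Mvd, a decarboxylase of the mevalonate pathway, at -1.95 ± 0.37. Sc5d, at 0.21 ± 0.76, and Pmvk, at -0.02 ± 0.51, did not pass. Fetal and pluripotency genes were lower for 6 of 13, among them Dlk1 at -2.57 ± 0.27, Afp, alpha-fetoprotein, at -2.54 ± 0.53, and Hmga2, a chromatin protein of the embryo, which was dark in heart on all 18 arrays and at least 5.12-fold lower. Igf2, the fetal growth factor, was higher at 2.01 ± 0.93.

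Outside these groups the lowest ratio of all belonged to Spp1, osteopontin, a secreted phosphoprotein. It ran from -8.52 over -7.42 to -6.84 and averaged -7.52 ± 0.49, which is 183-fold lower in heart (adjusted p of TREAT = 1.24e-19). Ifi202b, an interferon-induced DNA sensor, averaged -5.40 ± 0.57 with its heart channel well above background on 3 arrays. Il1rl1, the receptor of interleukin-33, averaged -4.76 ± 0.44. S100a4, a calcium-binding protein of motile cells, averaged -3.98 ± 0.54. Prl2c5 and Prl2c3, placental proliferins that are near copies of each other, were dark in heart on all 18 arrays and at least 7.30-fold and 5.39-fold lower.

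Among genes dark in the reference on all 18 arrays the largest bound was that of Klhl13, a ubiquitin ligase adaptor, at least 11.3-fold higher in heart. Kcnn2, a calcium-activated potassium channel, was at least 4.99-fold higher, and Myot, the Z-disc protein myotilin, at least 4.49-fold. Bounds compare the mean channel signal of the bright side with the lowest signal counted as above background on the same arrays. Esrrg, an orphan receptor of oxidative metabolism, had a bound of 6.02-fold, but its other probe stood at 0.28 and its call was lost without background correction.

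Some genes known from other organs were also higher in heart, and some of these differed widely between arrays. The source of their signal was not tested. The skeletal muscle list had 5 of 18 higher and 2 lower. Myl1, a fast skeletal light chain, averaged 5.12 ± 1.01. It was lowest on day 1 replicate 2 (3.28), day 3 replicate 4 (2.53) and day 28 replicate 2 (4.18), the arrays also low in atrial genes (below). Its other values lay between 4.43 and 6.35. Myh4, the fast IIb heavy chain, ran from 4.61 to 5.32 over all 18 arrays. Atp2a1, the fast muscle calcium pump, averaged 4.54 ± 0.46 by its brighter probe and 0.23 by its other probe. Actn3, of fast fibres, was lower at -1.59 ± 0.40, Myod1, the myogenic switch, stood at -0.06 ± 0.08, and Myh1 was dark in heart on all 18. The list median was -0.07, and 2.77 over the members with both channels above background on all arrays.

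**Figure D3:**
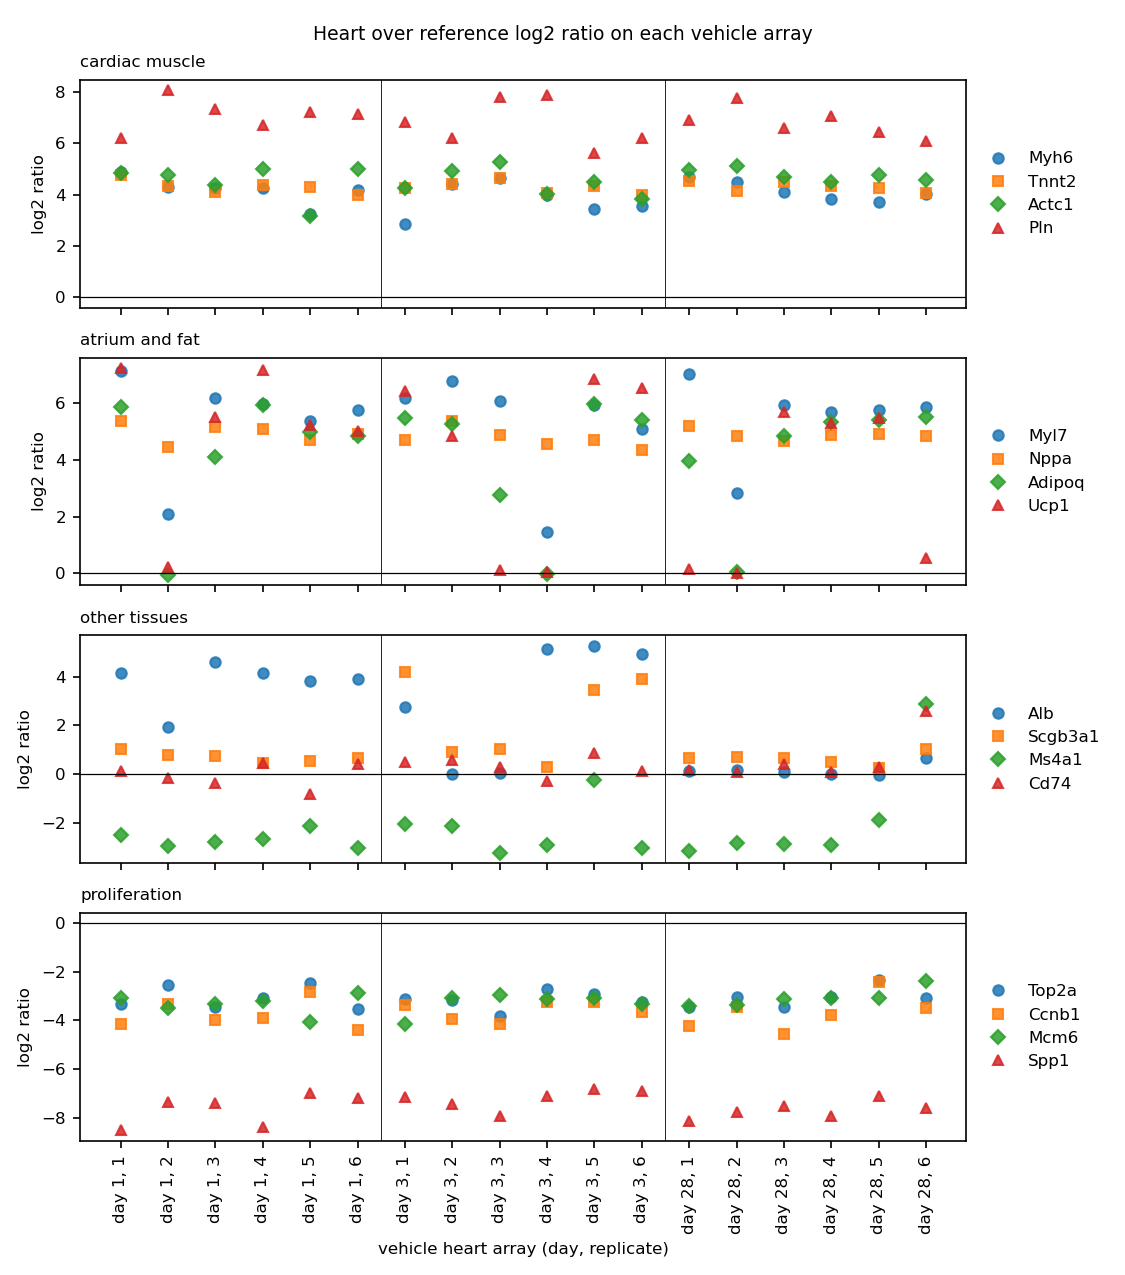
Log2 ratio of heart over reference (y axis) of 16 genes on each of the 18 vehicle arrays (x axis, day and replicate). Cardiac muscle genes lie above 2 and Spp1 below -6 on all arrays, whereas Myl7, Adipoq, Ucp1, Alb, Scgb3a1 and Ms4a1 change by several log2 units from array to array.

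Atrial genes set 3 arrays apart. All 10 genes of the atrial list were higher, at a median of 4.04, but the list level of single arrays was 0.447 at day 1 replicate 2, 0.923 at day 3 replicate 4 and 0.658 at day 28 replicate 2, and between 4.33 and 5.15 on the other 15. Myl4, the atrial essential light chain, stood at -0.30, -0.12 and -0.31 on those 3 and between 4.29 and 4.98 on the others. Sln, sarcolipin, the calcium pump inhibitor of the mouse atrium, stood at 0.02, 0.38 and 0.33, against 5.68 to 6.46. Bmp10, a growth factor of atrial muscle, stood at 0.01, -0.10 and 0.02, against 2.65 to 4.96. Nppa did not follow them, with 4.44, 4.57 and 4.85 on the 3 arrays. The contractile list did not either, at 4.76, 4.26 and 5.05 on those arrays within a range of 3.96 to 5.26 over all 18.

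The same 3 arrays were low for fat. Adipoq, adiponectin, the hormone of fat cells, stood at -0.07, -0.02 and 0.04 on them, against 2.75 to 5.99 on the other 15. Cfd, adipsin, stood at 0.83, 0.69 and 0.85, against 5.38 to 7.78. Ucp1, the uncoupling protein of brown fat, was near 0 on 3 further arrays, with 0.10 at day 3 replicate 3, 0.13 at day 28 replicate 1 and 0.54 at day 28 replicate 6, and lay between 4.83 and 7.25 on the other 12. Cidea, a lipid droplet protein of brown fat, did not follow, with 4.40 to 5.42 on all 18. The adipocyte list was higher for 9 of 11 genes, at a median of 4.00, and its level ran from 0.474 to 5.42 across arrays. Their part in other results was not tested beyond the fits without these 3 arrays, which called 2146 genes higher and 1466 lower.

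Smooth muscle and surface genes were low there too. Cnn1, calponin of smooth muscle, stood at -0.47, 0.20 and -0.08, against 2.71 to 4.79 on the others. Comp, a matrix protein of tendon and cartilage, stood at 0.48, 0.27 and 0.98, against 2.72 to 4.62. Upk3b, a marker of the epicardial mesothelium, stood at 0.44, 0.67 and 0.01, and was lower still at -0.39 on day 1 replicate 4. The level of the fatty acid oxidation list was 3.49, 3.60 and 3.34 on the same 3 arrays, against 2.05 to 3.26 on the other 15. That of the citric acid cycle was 2.89, 2.63 and 2.53, against 1.45 to 2.59.

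**Figure D4:**
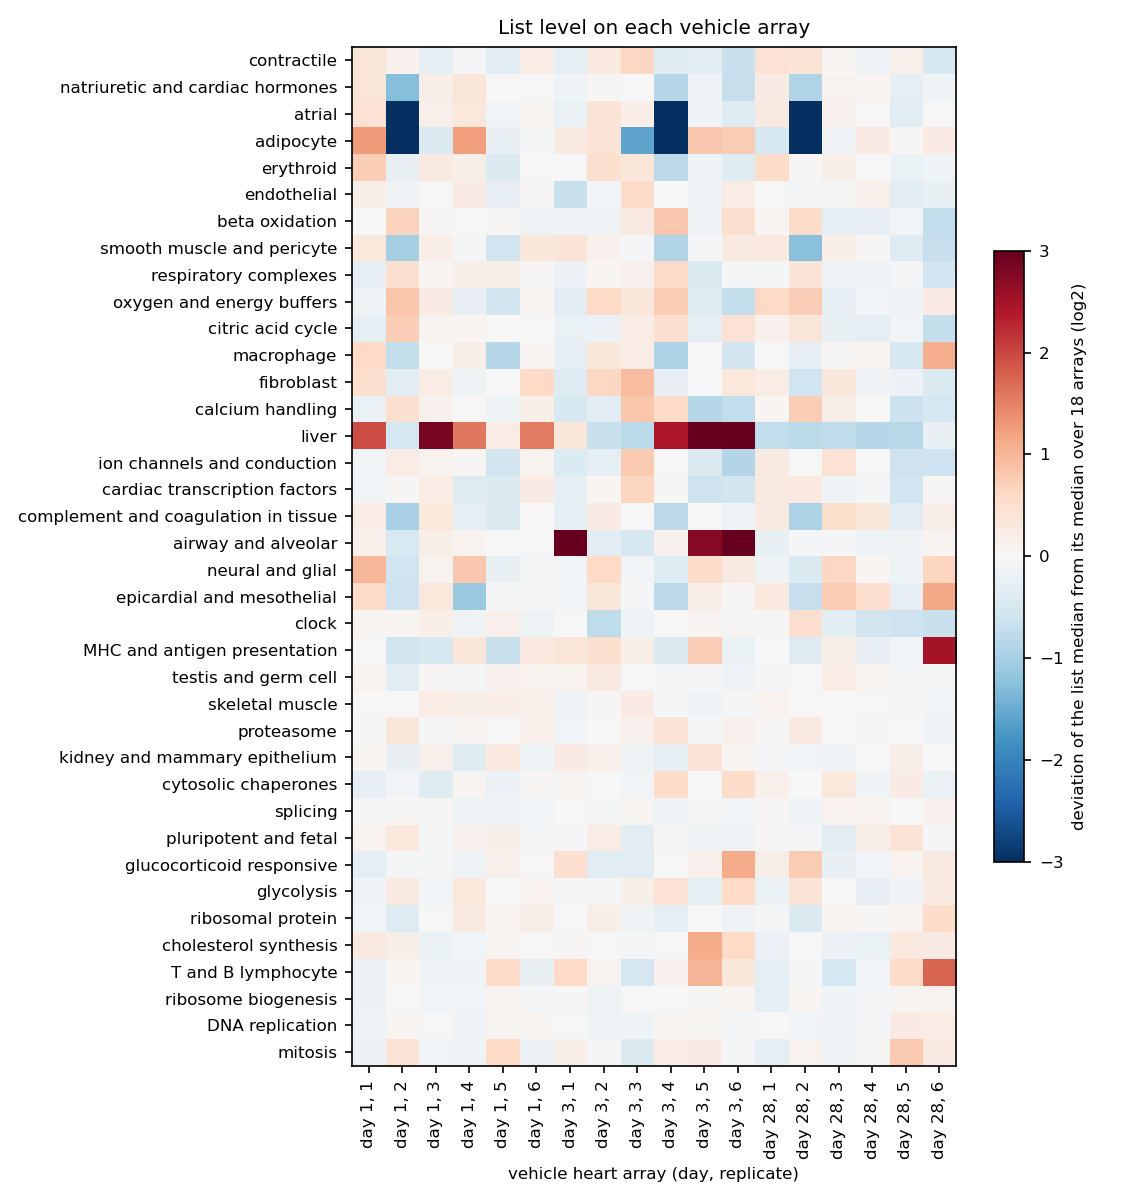
Level of each of 38 gene lists on each of the 18 vehicle arrays, as the deviation in log2 units of the list median on that array from its median over the arrays (rows in the order of the list medians). The atrial and adipocyte rows are low on day 1 replicate 2, day 3 replicate 4 and day 28 replicate 2, and the liver, airway and antigen presentation rows are high on few arrays.

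Liver genes varied by array and day. Alb, albumin, stood between 1.92 and 4.61 on the 6 arrays of day 1, at 2.76, 0.02, 0.06, 5.15, 5.28 and 4.94 on the 6 of day 3 and between -0.02 and 0.66 on the 6 of day 28. The liver list, 4 of 9 tested genes higher, ran from 0.010 to 5.28 across arrays. Fgg, a fibrinogen chain, reached 6.57 on day 3 replicate 5 and lay at 0.13 or below on all 6 arrays of day 28. Some airway genes were high on 3 arrays of day 3. Scgb3a1, a secretoglobin of the airway lining, stood at 4.20, 3.46 and 3.91 on replicates 1, 5 and 6 of that day, and between 0.24 and 1.03 on the other 15 arrays. Scgb1a1, the club cell secretoglobin, stood at 5.84, 2.88 and 3.50 on the same 3 arrays, and between 0.03 and 0.49 on the others. Cyp2f2 stood at 3.52, 4.59 and 4.49 on them. Lamp3, at 1.74, -0.73 and -0.74, and Foxj1, at 0.46, -0.07 and 0.70, were not high on all 3. No gene of the airway list passed among the 5 tested.

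Some lymphocyte genes, of B and T cells alike, were high on a single array. The level of the lymphocyte list was 0.48 on day 28 replicate 6, against -1.80 to -0.24 on the other 17. The lymphocyte genes named here are only part of that list. Ms4a1, CD20 of B cells, stood at 2.89 on day 28 replicate 6 and between -3.23 and -0.24 on the other 17. Cd79b, of the B-cell receptor, stood at 2.60 there, against -3.38 to -0.85. Cd74, the invariant chain of antigen presentation, stood at 2.61 there, against -0.82 to 0.85. Both Ms4a1 and Cd79b were called lower over all 18 arrays, at -2.25 and -2.16. Without that array they stood at -2.56 and -2.45. On the 9 arrays of the 3 slides that held all days they stood at -1.71 and -1.79 and did not pass. Cd3d, of the T-cell receptor complex, stood at 2.57 there, against -0.30 to 1.11, and Cd2, a T-cell adhesion receptor, at 2.19, against -0.26 to 0.54. Ptprc stood at 0.48 there, against -2.85 to -1.77. The antigen presentation list had a median of 0.30, which became -0.60 with median centring.

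Other gene groups showed smaller or divided differences. Their counts stand beside 9.69% higher and 6.87% lower among all genes tested. Complement and coagulation genes were higher for 6 of 14, at a median of 1.26 (0.45 with median centring), among them Vwf, von Willebrand factor of endothelium, at 4.20, and Serping1, the C1 inhibitor, at 4.01. Oxygen and energy buffers were higher for 9 of 13, at a median of 2.21 (3.55 with Agilent's processed signals). Of the 8 neural and glial genes 2 were higher, S100b, a calcium-binding protein of glia, at 2.84 and Gfra3, a co-receptor of the artemin signal, at 2.23. Epicardial genes went both ways, with Gpm6a at 3.15 and Aldh1a2, which makes retinoic acid, at 3.10 among 3 higher, and the keratins Krt8 at -3.27 and Krt18 at -2.82 as the 2 lower, of 11 tested.

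Clock genes were higher for 2 of 16, among them Hlf, a PAR-domain factor, at 2.11. Their median of 0.35 became -0.23 with median centring. Glucocorticoid targets were higher for 2 and lower for 3 of 15, at a median of -0.81 (-1.43 with median centring). They held Klf9, a zinc-finger factor, at 1.68, Tsc22d3, the leucine zipper GILZ, at 1.31, and the metallothionein Mt2 at -1.87. The counts of higher genes in these 2 lists are near the 9.69% of all genes tested and say nothing particular of either group. Kidney and mammary genes were higher for 0 and lower for 2 of 10, Epcam, the epithelial adhesion molecule, at -2.75 and Wnt4, a signalling ligand, at -1.34. None of 6 testis genes passed. Of 7 antigen presentation genes 2 passed as higher.

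Spread between animals was modest for most genes. The median within-day SD of the log2 ratio was 0.249, with 5% of genes below 0.128 and 5% above 0.661. The variance of the gene means was 89.3% of its sum with the mean within-day variance, which leaves out variance between days. On 198 probes printed 10 times on each array the median SD between spots within an array was 0.204, beside 0.271 between animals for the mean of the 10 spots. The within-day SD exceeded 1 in 266 genes, of which 121 were called higher and 9 lower. Among called genes measured in both channels on all 18 arrays the widest was Scd1, the stearoyl-CoA desaturase of fat and liver, which ran from -1.28 to 5.03 (2.29 ± 2.06). Next came Myl4, then Hp, haptoglobin, from -2.08 to 4.59, Apoc1, an apolipoprotein, from -0.48 to 6.07, and Cnn1. Acta1, skeletal alpha-actin, which the heart makes in early life and under load, ran from -1.16 to 4.66 (1.97 ± 1.58). The calls of Scd1, Hp and Acta1 were close to the threshold: leaving out 1 array at a time ended the call of Scd1 in 7 of 18 cases (2.12 to 2.51), of Hp in 11 (2.09 to 2.49) and of Acta1 in 7 (1.76 to 2.15).

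The steadiest called genes were mostly slightly depleted. Scaf11, a splicing-associated factor, ran from -1.32 to -0.998 (-1.19 ± 0.08), though the mean over its probes was -0.79 and not past the test, and Prpf38a, a spliceosome protein, from -1.38 to -1.06. Sars and Hars, the seryl- and histidyl-tRNA synthetases, averaged -1.54 ± 0.09 and -1.78 ± 0.11. The single enriched gene among the 8 steadiest was Snapc5, of the small nuclear RNA activating complex, at 1.52 ± 0.11, which was 0.58 with median centring and then not past the test.

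**Figure D5:**
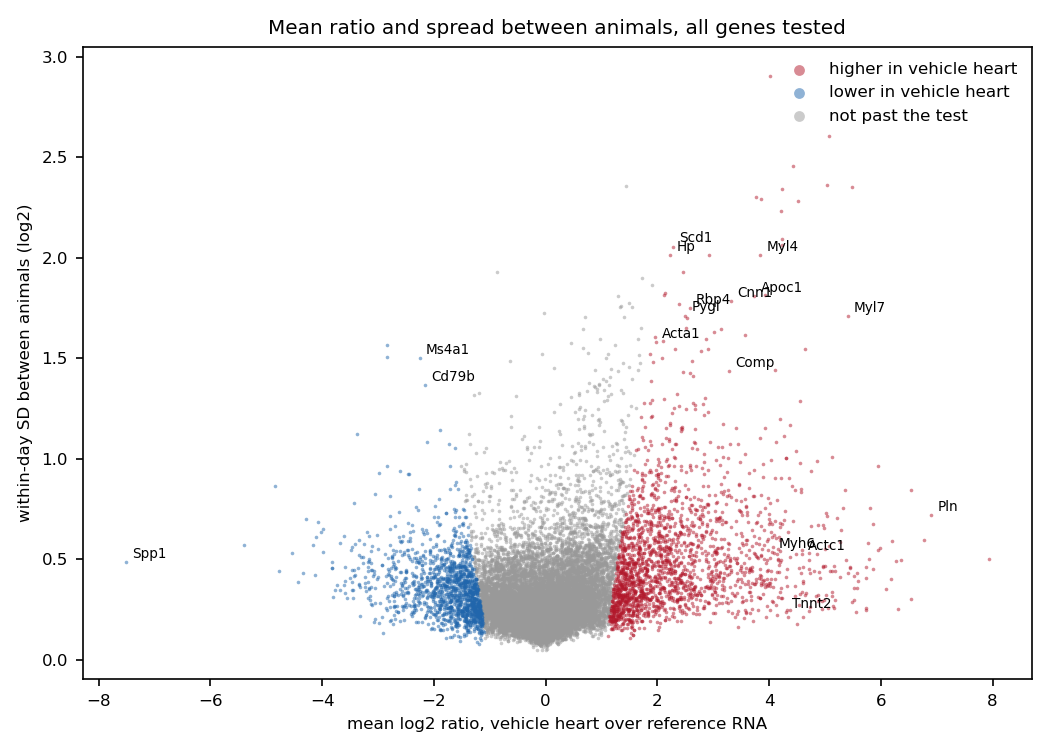
Within-day SD between animals (y axis, log2) against the mean log2 ratio of heart over reference (x axis) for the 21569 genes tested, coloured by TREAT call, with the 12 widest called genes that both channels measured on all arrays, the 4 cardiac markers and Spp1 named. Spread is larger on the heart-enriched side, with a median SD of 0.447 for higher genes against 0.342 for lower genes and 0.228 for genes not past the test.

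No gene passed the test for a difference between the days on which the vehicle hearts were taken. In limma's moderated F test over the 3 days, with an adjusted p threshold of 0.05, 0 genes passed, 0% of those tested, and 244 had an unadjusted p under 0.05. That is fewer than chance alone would give, so the lack of calls does not show a lack of differences. Alb did not pass, though it ran from 1.92 to 4.61 at day 1 and from -0.02 to 0.66 at day 28. With scan day as a random block 0 passed as well. The median gap between the highest and lowest day mean of a gene was 0.139. All 2089 higher and all 1481 lower genes kept their sign in each day mean. The widest gap among called genes was 3.59. Leaving out the arrays low in atrial genes and the day 3 arrays high in liver genes left 13 arrays. In that fit 3 genes passed, Alb, Serpina1d and Ces1c, products of liver at differences of -3.96, -2.81 and -3.44 (day 28 minus day 1). These exclusions were chosen from the values themselves, and day 1 arrays of similar liver level were kept. The liver list stood at 3.72 on day 1 replicate 3, which was kept, and at 3.30 on day 3 replicate 4, which was left out. This fit therefore cannot decide whether liver genes differ between days.

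The error of these ratios covers the spread between 18 hearts on arrays of a single dye orientation. A difference between the dyes, or between batches of the reference RNA, is not in it. Of 4347 genes with several probes, 3277 had all probes on one side of 0, and 868 of 920 among called genes. The ratios of Pde4dip, the second highest named gene at 6.78 ± 0.59, ran from -0.58 to 6.78 over its 5 probes. The heart channel found 42.8% to 63.7% of spots well above background, and the reference channel 55.7% to 76.5%, with no spot saturated.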

How the data were processed

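RNA of each heart (200 ng) was amplified and labelled with Cy5 and hybridised with Cy3-labelled reference RNA, per the labels' protocols. The authors read the arrays with Agilent Feature Extraction 10.1.1.1, per the file headers, and the deposited scanner files give foreground and background intensity, flags and a processed log10 ratio per spot. The authors' deposited value table is on the log2 scale by its values: its columns correlate at 0.9955 to 0.9981 with loess log2 ratios made without background correction, and have medians from -0.0551 to -0.0336. Scale and direction were settled in this way, and its own processing is not given in the sources used here.

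Median signals of the 43379 spots that are not controls were corrected for background by normexp with an offset of 50, and each array was then normalised by loess, with limma 3.58.1 under R 4.3.3. Flagged spots were left out (0.024% of values missing), spots of a probe were averaged, and the probe of highest mean signal stood for its gene. Accessions were named through RefSeq (GRCm38.p6), which named 23374 of 41174 probes, and the other genes were tested by accession. The fit held a mean for each day and TREAT with a bound of 1. The methods were tested on simulated data. Bounds use channel signals after loess and Aquantile scaling and are open to dye bias.

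The arrays lay on 12 slides, 3 of them with 3 control arrays, and were scanned on 7 days. The genes named are the 15 largest ratios in each direction, the 10 largest bounds, the 12 widest and 8 steadiest called genes, 4 markers, the 3 highest and 2 lowest members of 38 lists and the members of 35 pairs. A few genes that the rule names are not reported here. Further list members were named after their values were seen. The lists, pairs and tests were chosen with earlier results of these data known. Of 684 list genes, 654 were matched and 606 tested. Alternatives changed the scaling, background, signals, filter, probe choice, arrays, slide and bound.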

Additional observations from a re-analysis of the deposited data

Results flagged for a closer look

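Single arrays stood apart from the other 5 of their day in 49 of 327 groups of 6 values, for 71 genes and 38 lists, by Dixon's test at a ratio above 0.625. Chance flags about 1 in 20 such groups, but that rate does not apply to the 12 genes chosen for their wide spread, which gave 13 of the 49 in 36 groups. The genes of a list share arrays, and 13 of the values belong to day 1 replicate 2 and 11 to day 1 replicate 5.

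Day 1 replicate 2 was lowest for Lum (4.85), S100a4 (-5.18), Myl4 (-0.301), Hp (-1.32), Cnn1 (-0.466), Rbp4 (-0.841), Myl7 (2.08) and the levels of the atrial (0.447), natriuretic (3.23), adipocyte (0.705) and airway (-0.299) lists, and highest for the lists of beta oxidation (3.49) and the citric acid cycle (2.89). Day 3 replicate 4 was lowest for Myl4 (-0.125), Myl7 (1.47) and the atrial (0.923), smooth muscle (1.40) and epicardial (-0.222) lists. Day 28 replicate 2 was lowest for Myl4 (-0.313), Myl7 (2.84), Cnn1 (-0.0815), Comp (0.983) and the atrial (0.658) and adipocyte (0.851) lists.

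Day 1 replicate 5 was nearer to 0 than its group in all 11 of its values. It was lowest for Txlnb (4.91), Kcnn2 (1.69), Dach1 (0.34), Fgd5 (0.766) and Actc1 (3.18), and highest for Cenpe (-3.43), Uhrf1 (-2.17), Sgo1 (-3.13), Birc5 (-3.34), Rpl39l (-2.26) and the lymphocyte list (-0.684). The heart channel of this array found 42.8% of spots well above background, the lowest share of all arrays. Whether this bears on the 11 values was not tested.

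Day 28 replicate 6 was highest for Ms4a1 (2.89), Cd79b (2.60) and the macrophage (3.07), liver (0.656) and antigen presentation (2.61) lists. Day 28 replicate 5 was lowest for Dach1 (0.821) and highest for Prl2c5 (-1.78), and day 28 replicate 3 was highest for the testis list (0.466). Day 3 replicate 2 was highest for Pdk4 (7.03) and lowest for the ribosome biogenesis (-1.40) and clock (-0.249) lists. Day 3 replicate 3 was lowest for Ifi202b (-6.16) and Dlx2 (-2.58), and day 1 replicate 3 highest for Akap6 (6.20).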

How the results depend on the processing

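With median centring in place of loess 1133 genes were higher and 4234 lower, and the list medians of testis (-0.1317), clock (-0.23427) and antigen presentation (-0.59713) genes turned negative. The contractile median was then 3.61, against 4.59 with loess. Agilent's processed signals called 3961 genes lower, a TREAT bound of 2 called 772 higher and 266 lower as its construction requires, and the skeletal muscle median was 2.7688 over genes above background in both channels on all arrays. The median spread between animals was 0.4135 with a background offset of 0, 0.3986 with Agilent's processed signals, and 0.9134 as the range over arrays. An alternative added after the data were seen left out the arrays low in atrial genes and the day 3 arrays high in liver genes. In it 3 genes passed between days, all products of liver, but day 1 arrays high in liver genes were kept. With slide as a random block 2076 genes were higher and 1481 lower, and the 3 slides with an array of each day gave 1617 and 1026 on their own. Leaving out each array in turn gave 2038 to 2111 genes higher, 1434 to 1517 lower, 0 differing between days, and a median spread of 0.2411 to 0.253. The first-named gene had the larger ratio in 31 or 32 of 33 pairs (23 of 24 with both channels above background). Of the other values of named genes, 3871 kept their direction and side of the threshold, 64 lost and 34 gained the call, and 25 uncalled ones changed sign; none was reversed. For each change the cause was not tested unless stated. No paired analysis was possible because no replicate number in the labels is shared between days. Within the 3 slides that hold all days, with slide as a fixed block (added after the data were seen), 0 genes differed between days by limma, and 1140 had an unadjusted p under 0.05.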
